A study of Mus musculus with 32 samples.

Results

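The transcripts of 10 proteins of the contractile machinery of detrusor smooth muscle, the muscle of the bladder wall, were followed in whole mouse bladders. The genes were chosen by symbol (Acta2, Myh11, Myl9, Mylk, Cnn1, Tagln, Smtn, Lmod1, Des and Synpo2), and all 10 matched a single row among the 32285 genes of the count table. All 10 also passed the filter on low counts in each of the 8 comparisons. Bulk RNA was sequenced from 32 bladders of female C57BL/6 mice, 1 bladder per library, in 6 groups. Young mice were 2 months old (n = 6), middle-aged mice 10 months (n = 5) and all old mice 26 months. The old mice were untreated (n = 6) or had been gavaged from 21 to 26 months of age, on 3 days of each month, with water (n = 5), with vehicle (n = 4) or with dasatinib plus quercetin (D + Q, n = 6). The vehicle was 60% Phosal 50 PG, 30% polyethylene glycol and 10% ethanol, and D + Q, a drug pair used to kill senescent cells, was given at 5 mg/kg dasatinib and 50 mg/kg quercetin per day in that vehicle. The study sequenced bladders to follow aging and to ask what D + Q changed in old mice. No gene was altered in any group, all mice were of a single sex and strain, and nothing in the labels says which mice shared a cage or litter.

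Smooth muscle contracts when calcium and calmodulin switch on myosin light chain kinase, which phosphorylates the regulatory light chain of myosin and lets the myosin heavy chain pull on actin filaments. Myosin phosphatase reverses the step, and other signals hold that phosphatase back. Thin filament proteins such as calponin and transgelin bind the actin, leiomodin helps filaments to form, and desmin intermediate filaments tie the contractile units together. Serum response factor with its coactivator myocardin drives most of these genes from short DNA elements called CArG boxes. In the bladder this machinery sits mainly in the detrusor, although smooth muscle of vessel walls uses it too. A whole bladder also contains urothelium, fibroblasts, vessels, nerves and leukocytes, so in these bulk samples fewer muscle cells and less RNA per muscle cell cannot be told apart.

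Total counts per bladder were 15088372 to 52650259 and the least counted member, Tagln, still held at least 1530 counts in each, so the spread between bladders rather than counting set the precision. The 10 members together held 3.05% to 4.09% of all counts in a bladder, with a median of 3.55%. The muscle markers Acta2, Myh11 and Cnn1 were among the abundant transcripts of each library, and the 12 urothelial markers summed to 5626 to 7120 CPM (counts per 1000000 counts, with TMM library factors) in every bladder. Skeletal muscle markers summed to 380 to 1270 CPM, most of it Acta1, the skeletal actin. Their group median was highest in young bladders (934 CPM), although young replicate 5 held 540 CPM, less than middle-aged replicate 4 (803 CPM). No 2 bladders of a group had the same counts within sampling noise.

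Sequences are shown first for the 4 places where the 250 bases before a RefSeq start site carry a CArG box or a near match, because a shared element is the classical link between these genes. RefSeq windows on GRCm38.p6 were given for 8 of the 10 members, all but Myh11 and Tagln. An exact CArG box, a motif whose reverse complement has the same form so that a search covers both strands, was found for Myl9 alone (1 of 8). It was also found in 1.47% of the 32851 promoters. When 1 C or G was allowed among its 6 inner bases, the element was found for Acta2 and Myl9, 2 of 8 against 8.59% of all promoters. Each sequence below spans 30 bases with the match in capitals, and is named by its gene and the distance of the match from the start site.
Acta2 at -84 (chr19:34255438-34255467, minus strand): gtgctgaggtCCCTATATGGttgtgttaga
Acta2 at -34 (chr19:34255388-34255417, minus strand): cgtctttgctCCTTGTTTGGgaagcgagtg
Myl9 at -161 (chr2:156775293-156775322, plus strand): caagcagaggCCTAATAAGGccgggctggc
Myl9 at -99 (chr2:156775355-156775384, plus strand): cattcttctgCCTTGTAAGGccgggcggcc
The match at -161 of Myl9 is the exact one, and the other 3 carry a C or G inside. A match describes the letters and says nothing of binding in these bladders.

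Scaled for gene length as TPM (transcripts per 1000000, averaged over all 32 bladders), the levels of the members spanned a wide range. Acta2, smooth muscle alpha-actin, was highest at 9893 TPM, followed by Myl9, the regulatory light chain, at 7230 TPM and Myh11, the smooth muscle myosin heavy chain, at 5525 TPM. Des, the muscle intermediate filament protein, and Cnn1, the actin-binding protein calponin, were close to each other at 3633 and 3475 TPM. Mylk, which encodes the smooth muscle myosin light chain kinase, stood at 1333 TPM and Smtn, the filament protein smoothelin, at 755 TPM. Lmod1, leiomodin, and Synpo2, which encodes an actin-binding protein of muscle Z-discs, were lower at 470 and 445 TPM. Tagln, transgelin, was last at 179 TPM, far under Cnn1, although it is one of the best known abundant proteins of smooth muscle.

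The level of Tagln has a measured limit. Of the 1988 exon bases of Tagln (chr9:45929619-45936058 on mm10, minus strand), 1241 (62.4%) also lie in exons of the antisense gene Gm48529 on the plus strand, and 108 lie in exons of Pcsk7. Of all stretches of 75 bases in Tagln transcripts, 53.3% have a copy, on either strand, in the transcripts of another gene. The library kit marks strand, but the sources used here do not state whether the counting used it. How reads in the shared bases were counted is therefore not known, and the effect on the level of Tagln was not tested. Gm48529 itself had a mean of 13.2 CPM. Smtn (chr11:3517523-3540612, minus strand) shares 714 of 4380 exon bases (16.3%) with the antisense Gm11946, whose mean was 296 CPM. The other 8 members shared at most 5.86% of their exon bases with any single gene. These 2 antisense genes were named after their values were seen.

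In untreated old against middle-aged bladders, that is between 10 and 26 months of age, 5 of the 10 members fell and none rose: Smtn, Myh11, Myl9, Lmod1 and Mylk. Among all 17156 genes tested 24.0% passed (adjusted p under 0.05, quasi-likelihood test of edgeR), and 11.0% passed with a fall. The median log2 fold change of the members was -0.13, against -0.00 over all genes tested. The falls were small, between 10.4% and 20.0%, and the members that passed covered the myosin motor, its light chain, the kinase that switches it on and 2 proteins of the actin filament.

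Smtn had the clearest fall. Its level was 1065, 972, 1098, 1200 and 1063 CPM in the 5 middle-aged bladders, and had a lowest value of 800, a median of 870 and a highest of 920 CPM in the 6 untreated old ones. Every untreated old bladder lay under every middle-aged one. The log2 fold change was -0.32 ± 0.06 (SE), a fall of 20.0%, with an adjusted p of 0.00115. Its antisense neighbour Gm11946 also fell, by 0.19 ± 0.06 on the log2 scale (adjusted p = 0.0306), and how far the shared bases carry either value was not tested.

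Lmod1 (chr1:135324807-135368065) encodes leiomodin, which starts actin filaments, and was the other member whose groups did not overlap. It measured 569, 548, 595, 679 and 586 CPM in middle-aged bladders and 481, 503 and 546 CPM (lowest, median, highest) in untreated old ones. The closest pair of bladders across the groups was 548 against 546 CPM, so the gap is narrow. The log2 fold change was -0.22 ± 0.06 with an adjusted p of 0.0123. Complete separation with a fall, as in these 2 of 10 members, was found for 6.10% of all genes tested.

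The myosin motor and its light chain moved by similar amounts. Myh11 (chr16:14194535-14291372) measured 13430, 11682, 13264, 14548 and 13395 CPM in middle-aged and 10049, 11345 and 12466 CPM (lowest, median, highest) in untreated old bladders. The overlap came from middle-aged replicate 2, the lowest of its group, and the log2 fold change was -0.24 ± 0.07 with an adjusted p of 0.0301. Myl9 (chr2:156775420-156781658) gave 2592, 2259, 2595, 2817 and 2443 CPM in middle-aged bladders. In untreated old bladders it gave 1991, 2127 and 2468 CPM (lowest, median, highest), with a log2 fold change of -0.23 ± 0.07 and an adjusted p of 0.0336. Both genes thus overlapped slightly between the groups while their means differed by more than the group SD, which was 1024 CPM for Myh11 and 206 CPM for Myl9 in middle-aged bladders.

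Mylk (chr16:34745210-35002420), which makes the kinase that starts contraction, fell least. Its middle-aged values were 4488, 4403, 4717, 4837 and 4633 CPM and its untreated old values 3957, 4065 and 4563 CPM (lowest, median, highest). A single untreated old bladder reached into the middle-aged range. The log2 fold change was -0.16 ± 0.05 with an adjusted p of 0.0405. The calls for these 5 genes were not equally firm. Smtn and Lmod1 passed whichever of the 11 bladders was left out, although Lmod1 did not with all 6 groups in a single fit (adjusted p = 0.0681), whereas Myh11 passed in 5 of 11 such fits, Myl9 in 3 and Mylk in 2. The number of members called dropped to 2 without middle-aged replicate 1, 3, 4 or 5, or without untreated old replicate 1 or 2, and to 3 without untreated old replicate 3 or 6. All 5 kept a negative log2 fold change in the 20 alternative fits.

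The remaining members did not pass between 10 and 26 months. The log2 fold changes were -0.10 ± 0.07 for Acta2, -0.09 ± 0.09 for Cnn1, -0.06 ± 0.09 for Tagln, -0.05 ± 0.07 for Synpo2 and 0.06 ± 0.09 for Des. Their 95% intervals together ran from -0.28 to 0.26, so a change of the size seen in Smtn lies outside all 5 intervals. Falls of the size seen in Myh11, Myl9, Lmod1 and Mylk lie inside the intervals of Acta2, Cnn1 and Tagln. Whether the members that did not pass differ from those that fell was not tested. Gm48529, the antisense neighbour of Tagln, rose by 0.58 ± 0.19 on the log2 scale over this span (adjusted p = 0.0407, same test). Between 2 and 10 months its log2 fold change was -1.48 ± 0.20 (adjusted p = 0.00131). How far the shared bases carry the values of Tagln was not tested. Des, the intermediate filament gene, averaged 3838 ± 579 CPM (SD, n = 5) at 10 months and 3992 ± 328 CPM (n = 6) at 26 months. Within each bladder the counts of Des and Smtn therefore drew apart. The log2 ratio of Des to Smtn counts was 1.64 to 1.96 in middle-aged bladders and 2.05 to 2.41 in untreated old ones, with no overlap. This ratio was chosen after its values were seen and is given as a description.

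**Figure D1:**
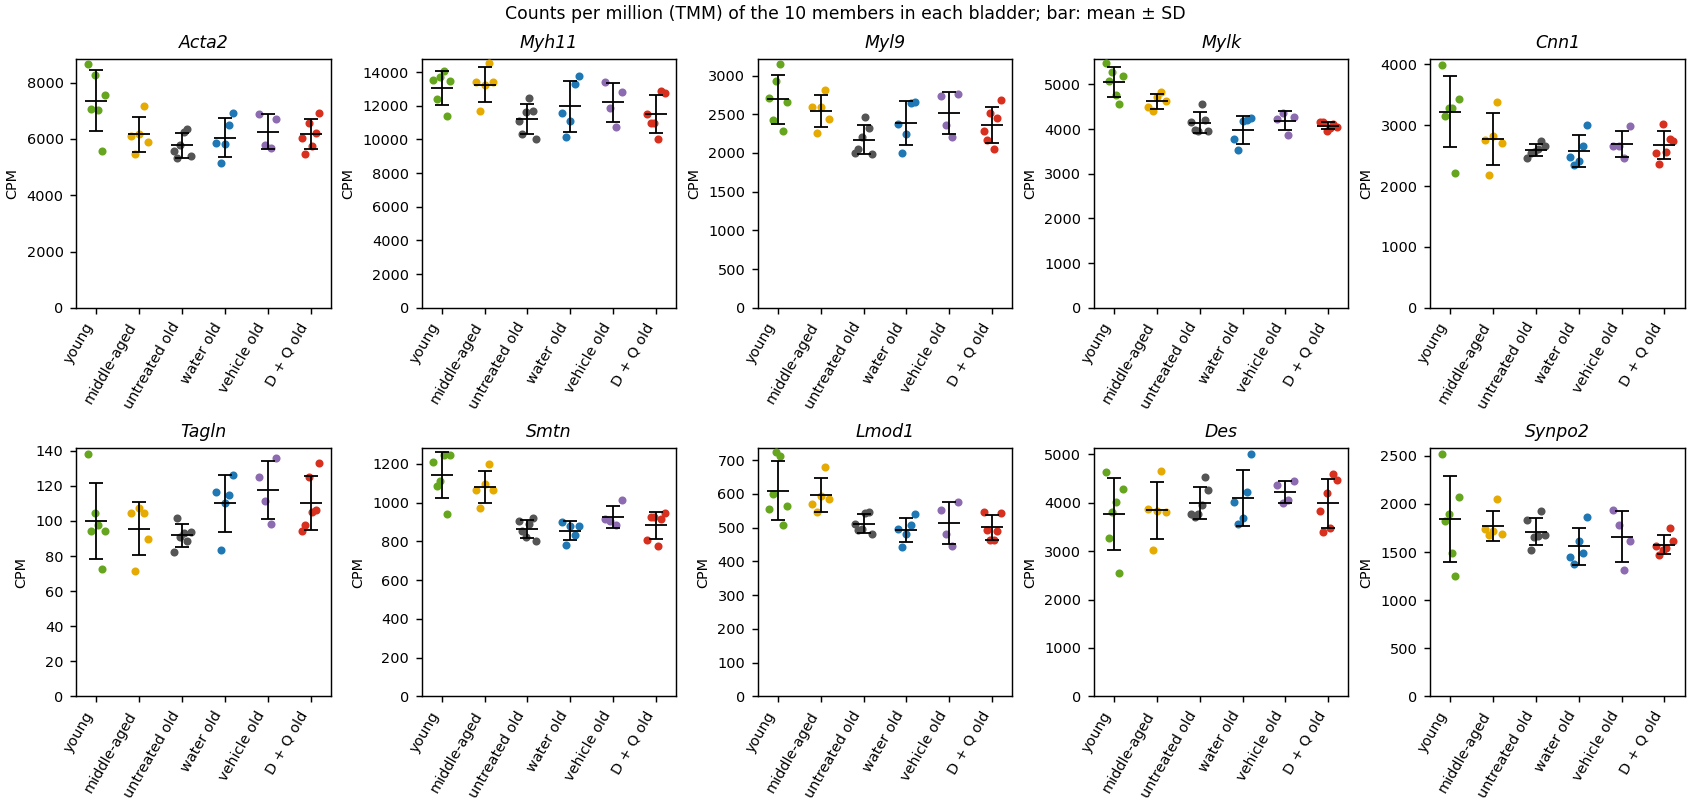
CPM of each member (vertical axes from 0, a different scale for each gene) in each bladder of the 6 groups, with the mean and SD as bars. Smtn and Lmod1 of untreated old bladders sit under all 5 middle-aged ones, Des averages 3838 and 3992 CPM in the same groups, and the young values of Synpo2 run from 1251 to 2521 CPM.

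Between 2 and 10 months no member passed the quasi-likelihood test of edgeR, where 10.8% of the 16754 genes tested did. A single member, Acta2, had an unadjusted p under 0.05, as did 27.2% of all genes (log2 fold change -0.24 ± 0.11, adjusted p = 0.162), and DESeq2 called none. Whether the falls differed between this span and the later one was not tested. The median log2 fold change of the members was -0.06 against 0.00 over all genes. The young group was broad: the mean of the 10 members on the log2 scale spanned a 1.47-fold range over the 6 young bladders, against 1.31-fold in middle-aged and 1.11-fold in untreated old ones. Young replicate 1 had the highest mean of all 32 bladders, and young replicate 5 the second lowest. Without young replicate 5, Acta2 passed (log2 fold change -0.31, adjusted p = 0.0363). The fibroblast markers moved far more over this span. Their 9 genes summed to 17184 to 31935 CPM at 2 months and 11373 to 14397 CPM at 10 months, and 7 of the 9 fell, among them Col3a1 (log2 fold change -1.33 ± 0.22) and Col1a1 (-1.07 ± 0.19), which encode fibrillar collagens. The part of this shift in the shares of the muscle genes was not tested.

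Over the whole span from 2 to 26 months 6 of the 10 members fell and none rose, where 25.1% of 16873 genes passed and 12.4% passed with a fall. The median log2 fold change of the members was -0.27, against -0.00 over all genes. Smtn fell by 0.40 ± 0.07 on the log2 scale (adjusted p = 0.00109), from 941, 1162 and 1248 CPM (lowest, median, highest) in young bladders, and it was the only member whose groups did not overlap. Such separation with a fall was found for 5.96% of all genes. Acta2 (chr19:34241090-34255590), whose young values were 5567, 7320 and 8660 CPM and untreated old values 5311, 5670 and 6341 CPM (lowest, median, highest), fell by 0.35 ± 0.10 (adjusted p = 0.0219). Mylk fell by 0.29 ± 0.07 (adjusted p = 0.00602) and Myl9 by 0.31 ± 0.09 (adjusted p = 0.0176).

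The other calls over the whole span were nearer the threshold. Cnn1 measured 2207, 3276 and 3993 CPM at 2 months and 2468, 2578 and 2739 CPM at 26 months (lowest, median, highest), with a log2 fold change of -0.31 ± 0.11 and an adjusted p of 0.0494. It passed in 1 of the 12 fits that left a bladder out. Lmod1 (log2 fold change -0.25 ± 0.08, adjusted p = 0.0413) passed in 5 of 12. Myh11 missed the threshold (-0.22 ± 0.08, adjusted p = 0.0685) and passed with DESeq2, with all 6 groups in a single fit and without young replicate 5. Smtn, Mylk and Myl9 passed in all 12 fits that left a bladder out and Acta2 in 10. Over the 10 other alternatives Smtn and Mylk passed in all, Myl9 in 8 (highest adjusted p = 0.0703) and Acta2 in 6 (highest adjusted p = 0.0757). The number of members called fell to 3 without young replicate 3 or without untreated old replicate 2. It fell to 2 when both young bladders with the lowest totals were left out, a check added after the data were seen. Tagln, Des and Synpo2 had log2 fold changes of -0.12, 0.09 and -0.10 and did not pass. These comparisons share the untreated old group with the preceding ones, so their falls are not separate evidence.

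**Figure D2:**
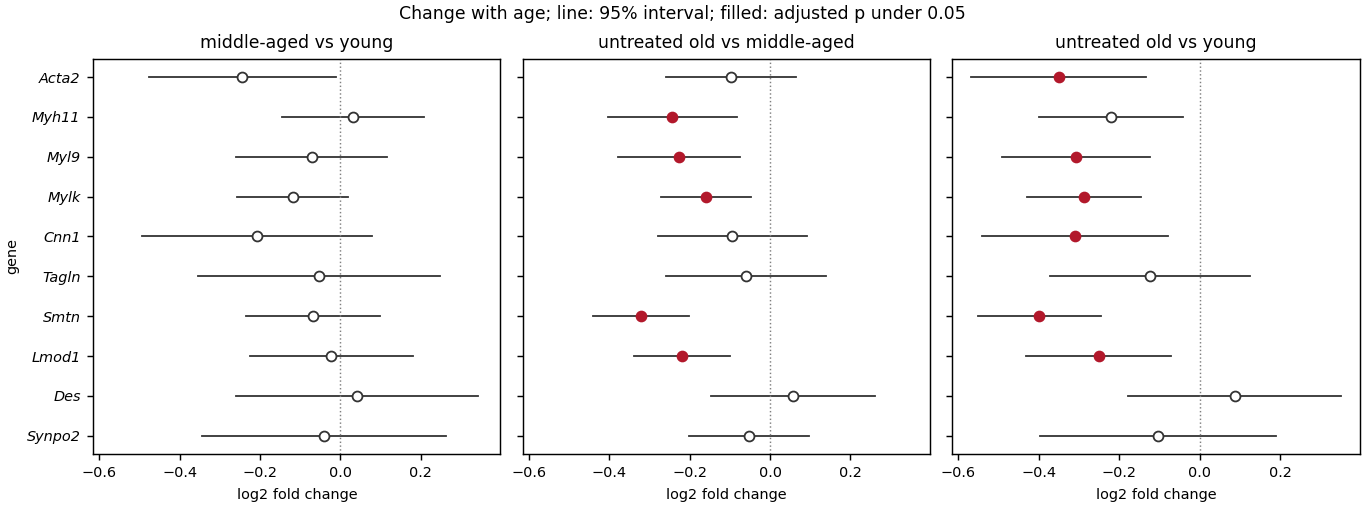
Log2 fold change of each member (horizontal axis) in the 3 age comparisons, with its 95% interval; filled points passed an adjusted p of 0.05. No point is filled between 2 and 10 months, 5 are filled between 10 and 26 months and 6 over the whole span, all on the negative side.

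Cell markers also differed between middle-aged and untreated old bladders. The 8 leukocyte markers summed to 83.1 to 100.1 CPM at 10 months and 183 to 279 CPM at 26 months, and 6 of the 8 rose, led by Ms4a1 (log2 fold change 5.00 ± 0.42), Cd79a (4.49 ± 0.40) and Cd3e (2.42 ± 0.22), which mark B and T cells. Endothelial markers summed to 284 to 305 CPM at 10 months and 246 to 286 CPM at 26 months, with 3 of 7 lower, Cldn5 by the most (log2 fold change -0.46 ± 0.08). Of the urothelial markers 4 of 12 fell, among them Upk2 (-0.23 ± 0.06) and Upk3a (-0.19 ± 0.04), by amounts like those of the muscle genes. Of the 8 markers of vessel mural cells, which also hold smooth muscle proteins, only Higd1b passed, with a rise (0.44 ± 0.15). The log2 fold change was negative for 7 of these 8, with a median of -0.08, where 51.2% of all genes tested were negative. Schwann cell markers had 2 of 5 lower and fibroblast markers 1 of 9, and no marker of adipocytes or of interstitial cells passed. Among all genes tested 24.0% passed and 11.0% passed with a fall. All 9 fibroblast and all 7 endothelial markers had a negative log2 fold change, with medians of -0.16 and -0.15. The Schwann cell median was -0.29 and the urothelial one -0.08, where that of the 10 members was -0.13. Medians were positive for leukocyte (1.27), adipocyte (0.73) and tested skeletal muscle markers (0.16). Of 12 skeletal muscle markers 8 were tested, of which Myh2 and Myh1 rose and Ckm fell. The part of these cells in the muscle values was not tested.

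Among 30 other contractile and cytoskeletal genes of smooth muscle, 5 rose and 2 fell between 10 and 26 months, near the 24.0% of all genes, with a median log2 fold change of -0.02. The risers were not specific to smooth muscle. Tpm4, a tropomyosin of nonmuscle filaments, averaged 152 ± 12.7 CPM (SD, n = 5) at 10 months and 197 ± 7.72 CPM (n = 6) at 26 months (log2 fold change 0.38 ± 0.05, adjusted p = 0.000238). Tagln2, a widely expressed relative of transgelin, rose by 0.29 ± 0.06 and Tln1, the adhesion protein talin, by 0.23 ± 0.07. Myl12a, the light chain of nonmuscle myosin, and Myh10, a nonmuscle myosin heavy chain, rose as well. The fallers were Palld, the actin cross-linker palladin (-0.18 ± 0.04, adjusted p = 0.00599), and Mylk2, which encodes the kinase of skeletal rather than smooth muscle (-1.32 ± 0.20) and was under 2 CPM throughout.

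Between 2 and 10 months 5 of the 30 fell and none rose, where 10.8% of all genes passed, with a median log2 fold change of -0.22, and the 5 were Tpm4 (-0.49 ± 0.12), Tagln2 (-0.36 ± 0.09), Myl12a (-0.32 ± 0.08), Vim, the intermediate filament protein of mesenchymal cells, and Myh10. This count of 5 was not stable. It became 10 without young replicate 5, 1 without middle-aged replicate 1 or 2, and 0 without young replicate 6 or middle-aged replicate 3 or 5. This comparison shares the middle-aged bladders with the preceding one, so a low value in that group would appear as a fall in the former and a rise in the latter. Over the whole span 11 of the 30 fell and none rose, where 25.1% of all genes passed and 12.4% passed with a fall. The count became 17 without young replicate 5 and 7 without young replicate 1 or 6 or untreated old replicate 1 or 2. Tpm4 did not pass over that span (-0.13 ± 0.11, adjusted p = 0.443).

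Of 19 regulators of myosin light chain phosphorylation, 7 fell and 2 rose between 10 and 26 months, 47.4% against 24.0% of all genes. Without middle-aged replicate 5 the count dropped from 9 to 4, and it was 5 with all 6 groups in a single fit. The falls were led by Camk2g, a calcium and calmodulin dependent kinase (210.1 ± 5.75 CPM at 10 months, 175 ± 9.06 CPM at 26 months, log2 fold change -0.26 ± 0.04, adjusted p = 0.000331). Pde5a, the phosphodiesterase that ends cyclic GMP signals, fell by 0.26 ± 0.07 and Ppp1r12b, a targeting subunit of myosin phosphatase, by 0.24 ± 0.05. Also lower were Ppp1r14a, the phosphatase inhibitor CPI-17, Ppp1r12a, a further targeting subunit of the phosphatase, Irag1, a substrate of cyclic GMP dependent kinase, and Prkca, a protein kinase C. Mylk, the kinase, and both named subunits of its opposing phosphatase were thus among the falls.

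Ppp1r14a fell in each step. Its levels were 146 ± 10.1, 117 ± 4.67 and 102 ± 1.93 CPM (SD) at 2, 10 and 26 months. The log2 fold changes were -0.31 ± 0.05 between 2 and 10 months (adjusted p = 0.00473) and -0.20 ± 0.03 between 10 and 26 months (adjusted p = 0.000489). Between 2 and 10 months 2 of the 19 regulators fell and none rose, close to the 10.8% of all genes that passed, and the count was 4 without young replicate 5 and with DESeq2.

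Of 14 transcription factors of the smooth muscle program, 4 fell and none rose between 10 and 26 months (28.6% against 24.0% of all genes), and 2 passed without middle-aged replicate 5 or untreated old replicate 3. They were Gata6, a factor of differentiated smooth muscle (-0.39 ± 0.05, adjusted p = 7.14e-05), Myocd, which encodes myocardin (-0.19 ± 0.06, adjusted p = 0.0309), Yap1 (-0.19 ± 0.03) and Elk1, a partner of serum response factor. Myocd had already fallen between 2 and 10 months (-0.28 ± 0.08, adjusted p = 0.0357). It stood at 108 ± 12.6, 88.2 ± 6.65 and 77.1 ± 5.93 CPM at 2, 10 and 26 months. Klf5, a factor of less differentiated smooth muscle, and also one of epithelia, rose between 2 and 10 months (0.42 ± 0.07, adjusted p = 0.00582). Of the 3 age comparisons Srf, serum response factor itself and named after its values were seen, passed only over the whole span, with a log2 fold change of -0.22 ± 0.06.

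Bladder muscle also makes a second smooth muscle actin, the enteric gamma-actin encoded by Actg2, which was compared with Acta2. The coding sequences of both genes differ at 183 of 1131 aligned bases (83.8% identical, GENCODE vM21 transcripts), and the longest identical run is 29 bases. No stretch of 75 bases is shared by their transcripts, so reads of that length separate them. The stretch of 120 coding bases below, from base 591 of Acta2 and base 588 of Actg2, shows 21 of the differences in capitals.
Acta2: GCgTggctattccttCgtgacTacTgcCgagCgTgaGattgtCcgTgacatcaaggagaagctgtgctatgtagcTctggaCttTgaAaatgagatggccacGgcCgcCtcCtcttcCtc
Actg2: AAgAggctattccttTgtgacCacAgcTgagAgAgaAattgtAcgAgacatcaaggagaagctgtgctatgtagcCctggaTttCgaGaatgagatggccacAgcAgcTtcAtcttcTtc

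Actg2 varied more between bladders than any of the 10 members. It ranged over the 32 bladders from 1735 to 7265 CPM, 4.19-fold, where the members ranged 1.45-fold (Myh11) to 2.01-fold (Synpo2). Both ends of that range were young bladders, replicates 5 and 1. Middle-aged bladders gave 2557, 1983, 3076, 4205 and 2902 CPM, and untreated old bladders 3104, 3264 and 3601 CPM (lowest, median, highest). No age comparison passed for Actg2, with log2 fold changes of -0.52 ± 0.28 between 2 and 10 months and 0.15 ± 0.14 between 10 and 26 months. Untreated old bladders were close together for this gene and middle-aged and young ones were not.

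The ratio of the 2 actins within a bladder needs no scaling between libraries. The log2 ratio of Actg2 to Acta2 counts was -0.90 ± 0.50 (SD, n = 6) in young, -1.10 ± 0.26 (n = 5) in middle-aged and -0.81 ± 0.07 (n = 6) in untreated old bladders. The middle-aged values were -1.26, -1.46, -1.01, -0.77 and -1.02, and the untreated old ones ran from -0.91 to -0.74, so that middle-aged replicate 4 alone lay inside the old range. The difference of 0.29 between untreated old and middle-aged bladders had an exact two-sided permutation p of 0.0303, which did not hold after adjustment over the 4 comparisons made (adjusted p = 0.121). The smallest p this design allows is 0.00433. The other 3 comparisons gave exact permutation p of 0.433 (middle-aged against young), 0.697 (untreated old against young) and 0.513 (D + Q against untreated old).

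**Figure D3:**
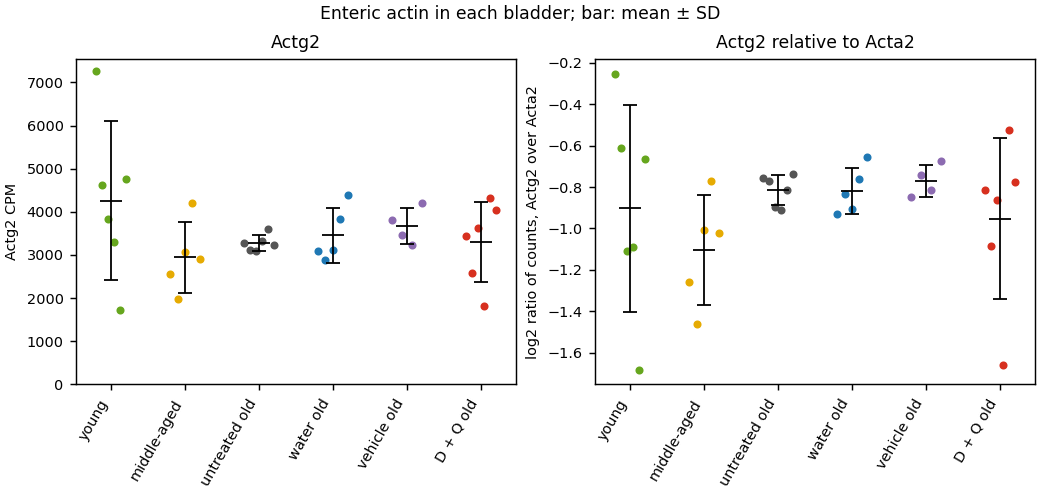
Left, Actg2 in CPM (axis from 0), and right, the log2 ratio of Actg2 to Acta2 counts, in each bladder of the 6 groups with the mean and SD as bars. Untreated old bladders lie within -0.91 to -0.74 on the right, whereas young ones run from -1.68 to -0.25 and 1 D + Q bladder lies at -1.66.

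In old mice no member passed in any comparison that involved gavage. D + Q against untreated old bladders gave 0 of 10 members, where 0% of the 17037 genes tested passed, and 12.9% had an unadjusted p under 0.05. Of the members, Tagln alone had an unadjusted p under 0.05, and DESeq2 called none of the 10. The median log2 fold change of the members was 0.03. Their 95% intervals together reached from -0.25 to 0.44 on the log2 scale, that is from 0.840 to 1.36 times the untreated level. For Smtn, the member that fell most with age, D + Q bladders measured 778, 921 and 945 CPM (lowest, median, highest) against 800, 870 and 920 CPM in untreated old ones. The log2 fold change was 0.03 with an interval of -0.09 to 0.15. This does not reach the point estimate of 0.32 lost between 10 and 26 months, a fall whose own interval was -0.44 to -0.20.

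For the other members that fell between 10 and 26 months, the log2 fold changes after D + Q were 0.04 for Myh11 (interval -0.13 to 0.20), -0.02 for Mylk (-0.12 to 0.08), -0.03 for Lmod1 (-0.14 to 0.08) and 0.12 for Myl9 (-0.04 to 0.28). The interval of Myl9 reaches the 0.23 lost with age, and those of Myh11, Mylk and Lmod1 do not reach the point estimates of their own losses. Those losses have intervals too, from -0.40 to -0.08 for Myh11 and from -0.27 to -0.05 for Mylk. In size, the D + Q intervals of Myh11 and Mylk reach into these ranges. Both comparisons share the untreated old bladders, and whether D + Q restored any part of a loss was not tested. Acta2 and Cnn1, which fell over the whole span, had log2 fold changes of 0.09 (-0.06 to 0.24) and 0.04 (-0.09 to 0.16). D + Q bladders had Mylk at 3955, 4084 and 4155 CPM (lowest, median, highest), the narrowest spread of any group for that gene. Against vehicle, the control that carried the same solvents, 0 of 10 members passed, with log2 fold changes from -0.10 to -0.01. Against water 0 of 10 passed, with log2 fold changes from -0.06 to 0.04. In both of these comparisons no member had an unadjusted p under 0.05, where 4.18% of genes did against vehicle and 7.82% against water, DESeq2 called none, and 0% of all genes passed.

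Tagln moved most against untreated old bladders. It measured 82.3, 92.0 and 102 CPM (lowest, median, highest) in untreated old, and 94.2, 106 and 133 CPM in D + Q bladders. Water-gavaged bladders gave 116, 83.2, 110.0, 115 and 126 CPM, and vehicle-gavaged bladders 125, 112, 98.1 and 136 CPM. In D + Q 4 of 6, in water 4 of 5 and in vehicle 3 of 4 bladders lay above the highest untreated one, so each group overlapped with the untreated group. By the quasi-likelihood test of edgeR the log2 fold changes were 0.26 ± 0.08 for D + Q (adjusted p = 0.289), 0.26 ± 0.09 for water (adjusted p = 0.174) and 0.36 ± 0.08 for vehicle (adjusted p = 0.315). All 3 comparisons share the untreated old group, each had an unadjusted p under 0.05, and none passed after adjustment. In water, Tagln passed without replicate 2 (log2 fold change 0.35, adjusted p = 0.0246), and in vehicle it passed with DESeq2 (0.36, adjusted p = 0.0113). Its antisense neighbour Gm48529 had log2 fold changes of 0.12, -0.23 and 0.06 in the same comparisons.

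By the quasi-likelihood test, neither water nor vehicle gavage gave a call among the 10 members. In water against untreated old bladders 0 of 10 members passed, where 1.0% of 17250 genes did and 16.0% had an unadjusted p under 0.05, with log2 fold changes from -0.13 (Synpo2) to 0.26 (Tagln). In vehicle against untreated old bladders 0 of 10 passed, where 0% of 17440 genes did and 8.39% had an unadjusted p under 0.05, with log2 fold changes from -0.04 (Synpo2) to 0.36 (Tagln). Myl9, like Tagln, had an unadjusted p under 0.05 in the latter comparison (0.21 ± 0.09, adjusted p = 0.551). None of the contractile, regulator and transcription factor lists had a gene past the threshold in any of the 5 gavage comparisons.

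**Figure D4:**
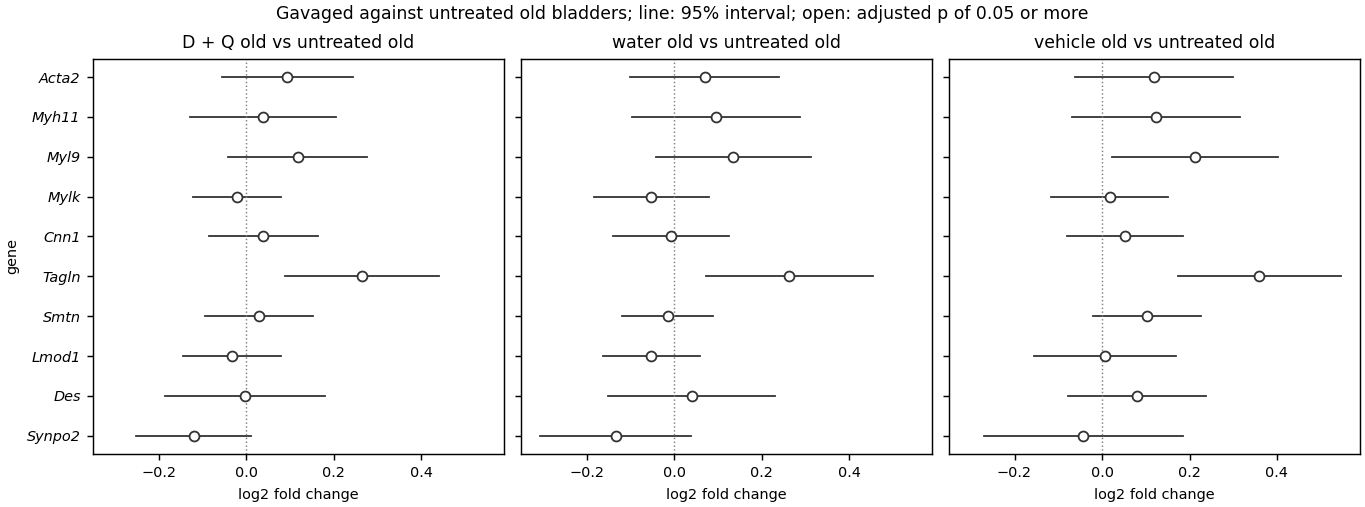
Log2 fold change of each member (horizontal axis) in D + Q, water and vehicle old bladders against untreated old bladders, with its 95% interval; no point passed an adjusted p of 0.05. Tagln lies farthest to the right in all 3 panels, at 0.26, 0.26 and 0.36, and the 3 panels share their untreated bladders.

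The members varied together from bladder to bladder. Over the 45 pairs the median Pearson correlation of log2 CPM was 0.64 across 32 bladders, and 0.66 when each value was taken from its group mean. With group means removed, the closest pairs were Des with Cnn1 (r = 0.92) and Myl9 with Myh11 (0.91), and the loosest was Lmod1 with Synpo2 (0.31). Des and Mylk were nearly unrelated over all bladders (0.01) and more closely related within groups (0.51). The bladders share their scaling factors, and all muscle genes of a bladder share its muscle content, so these values are a description with no test.

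**Figure D5:**
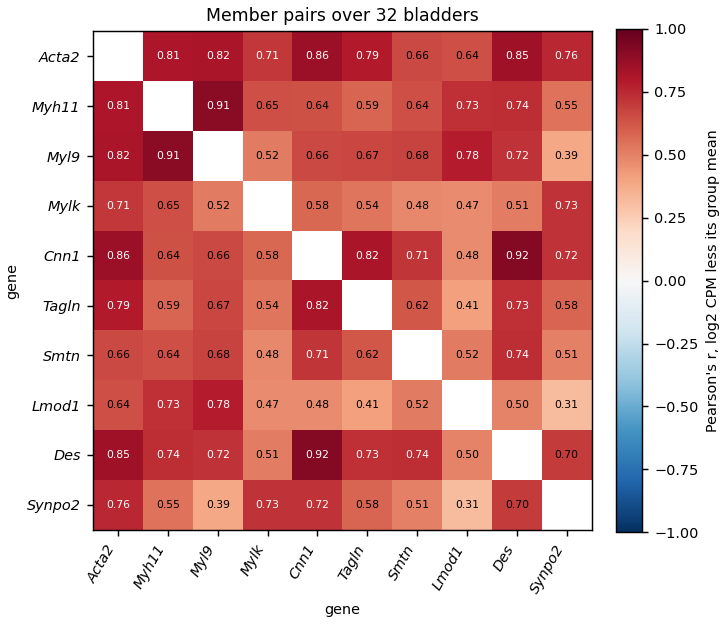
Pearson correlation of log2 CPM for each pair of members over 32 bladders, after the group mean was taken from each value (color scale -1 to 1). All 45 pairs are positive, from 0.31 for Lmod1 with Synpo2 to 0.92 for Des with Cnn1.

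Outside the members, the genes closest in pattern were again genes of muscle filaments and adhesion. By Pearson correlation with the mean of the 10 members over the 32 bladders, they were Csrp1, a LIM protein of the actin cytoskeleton (r = 0.95), Tpm1, a muscle tropomyosin (0.93), Pdlim3, a LIM protein of Z-discs (0.92), Dmpk, a muscle protein kinase (0.92), and Rsu1, an adhesion protein (0.89). Csrp1 ranged from 2818 to 5251 CPM and Tpm1 from 3238 to 6383 CPM over all bladders. None of the 5 passed between 10 and 26 months, where their log2 fold changes were -0.14, -0.14, -0.13, -0.11 and -0.13 in the same order.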

How the data were processed

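Bulk RNA of 32 whole bladders was analysed. Per the labels, libraries came from a stranded total RNA kit. The authors aligned reads to mm10 with STAR 2.7.3 and deposited featureCounts counts per gene (Subread) with no normalization, beside each gene's summed exon length, the other unit of that table. The authors also deposited log2 values of length-scaled counts, whose linear values sum to 100000 per bladder and give TPM when multiplied by 10. Strandedness of counting is not given in the sources used here.

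The members and gene lists were chosen with earlier results of these data known. Groups followed the labels. In each of 8 comparisons, edgeR 4.0.16 in R 4.3.3 (TMM, filterByExpr, quasi-likelihood test) was fitted to the 2 groups alone, with Benjamini-Hochberg adjustment over all genes tested and 0.05 as threshold. CPM used TMM factors over all 32 bladders. TPM came from counts and length. Intervals are 95% and come from the fit. The actin ratio added 0.5 counts to each gene. Genes nearest in pattern were ranked on log2(CPM + 0.1). Genes named from a list are up to 3 largest rises and falls among those passing in untreated old against middle-aged or in middle-aged against young bladders, and others are named to complete a count. Gene positions and exons come from GENCODE vM21, whose member coordinates match the deposited ones, and promoters from RefSeq GRCm38.p6. Fitting code was tested on simulated data. Replicates were separate bladders, and no column was left out. Results for some regulators are not reported here. The p-values of the fits weigh a difference between groups against the spread between these bladders.

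Alternatives were DESeq2 1.42.0, RLE or no library factors, no filter, a minimum of 10 counts per bladder, a joint fit of all 6 groups, the replicate number as a block, limma 3.58.1 on log2(TPM + 1), each bladder left out, and for the ratio 10 added counts or the deposited table. Tables and plots were made in Python 3.11.15 with matplotlib 3.10.9, and permutation tests with scipy 1.17.1.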

Additional observations from a re-analysis of the deposited data

Results flagged for a closer look

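Among 72 sets of values (10 members, Actg2 and the actin ratio, each in 6 groups), a single bladder stood apart by Dixon's rule, where chance flags about 1 in 20 sets. Synpo2 in middle-aged replicate 4 was the highest of its group at 2047 CPM, against 1741 CPM for the next bladder and 1676 CPM for the lowest, so that the gap took 0.825 of the group's range and the critical value is 0.71. The same bladder was the highest of its group for the mean of the 10 members.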

How the results depend on the processing

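Calls of members depended on the bladders that entered and on the fit. Between 10 and 26 months the count of 5 became 2 without a filter on low counts and 3 with all 6 groups together, and 2 to 5 with each bladder left out. Between 2 and 26 months the count of 6 became 3 with the replicate number from the titles as a block, 3 with the number from the descriptions as a block, 3 with limma and 2 without both shallow young bladders, and 3 to 7 with each bladder left out. It was 0 to 1 between 2 and 10 months and for water (each bladder left out), and 1 for vehicle with DESeq2. Same-numbered bladders did not deviate together in every pair of any comparison, so the block shares only a number; it gave 5 calls between 10 and 26 months. The actin ratio difference ran from 0.20 to 0.37 between 10 and 26 months, passing without middle-aged replicate 4 (adjusted p = 0.0381), from -0.0682 to 0.22 over the whole span and from -0.22 to 0.00204 after D + Q.

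Sign changes touched only values that had not passed. With each bladder left out, log2 fold changes between 2 and 10 months ran from -0.00362 to 0.0731 (Myh11), -0.13 to 0.0533 (Tagln), -0.0468 to 0.12 (Des), -0.0731 to 0.0314 (Lmod1) and -0.13 to 0.0601 (Synpo2). Between 10 and 26 months they ran from -0.0170 to 0.13 (Des) and -0.0852 to 0.000699 (Synpo2), and over the whole span from -0.00355 to 0.15 (Des) and -0.19 to 0.00641 (Synpo2). After D + Q they ran from -8.04e-05 to 0.0721 (Cnn1), -0.0476 to 0.0399 (Des), -0.0338 to 0.00860 (Mylk) and -0.0827 to 0.13 (Actg2). Other turns between 2 and 10 months were Lmod1 at 0.00750 with library size only, 0.0369 with the description block and 0.11 without both shallow young bladders, Myl9 at 0.0206 without those, and Synpo2 at 0.0292 and 0.00293 under the title and description blocks. After D + Q, Smtn was -0.00175 with limma, and Actg2 -0.000589 with library size only, -0.0433 under either block and -0.0750 with limma. The cause of these changes was not tested.

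Over all genes, between 2 and 10 months 1811 calls became 2858 with all 6 groups, 716 and 893 under the blocks and 3717 without both shallow young bladders, and between 10 and 26 months 4110 became 2519 with all 6 groups. DESeq2 gave 180 calls for D + Q against untreated old, 10 against vehicle, 69 against water, 703 for water and 132 for vehicle. Water's 173 calls were 99 without a filter and 0 with all groups, blocks or limma.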
